A study of Rapana venosa with 9 samples.

Results

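Among the small RNA references of the veined rapa whelk (Rapana venosa), a predatory marine gastropod, 6 carry the names of the muscle microRNAs miR-1, miR-206 and miR-133. They are miR-1-y, miR-1-z, miR-206-y, miR-133-x, miR-133-y and miR-133-z, 6 of the 918 miRNA references with deposited counts, and were picked out by their names, with earlier results of these data known. The sources used here do not say what the endings x, y and z stand for. Small RNA was sequenced from 9 libraries, 3 for each of 3 stages of metamorphosis of reared animals. The sample labels name no treatment. Precompetent larvae (Pre-CL) are swimming larvae with 3 spiral whorls, competent larvae (CL) are swimming larvae with 4 spiral whorls that are ready to settle, and postlarvae (PL) are the bottom-living juveniles. Each library is described as a biological replicate of 40 to 100 individuals, but the extraction protocol speaks of an individual intestine, and the files do not tell which tissue was sequenced. Since each library mixes the RNA of many cells, more cells of one type and more RNA per cell cannot be told apart in any result here.

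MicroRNAs are short RNAs that guide the silencing machinery to messenger RNAs, mostly through pairing of the seed, bases 2 to 8 from their 5′ end. miR-1 is abundant in muscle across bilaterian animals, where it dampens genes that do not belong to the mature muscle programme. miR-206 is its close relative in vertebrate skeletal muscle and has the same seed. miR-133 has an unrelated seed, is also enriched in muscle, and in many animals is made from a gene beside that of miR-1. In a gastropod larva muscle includes the larval retractors and the muscle of the foot, and at metamorphosis the ciliated swimming organ, the velum, is lost.

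The reference sequences are shown because the 6 names come down to 3 seeds, and because several references differ by no more than their last bases. They are given as deposited, in DNA letters and 5′ to 3′, with the seed in capitals.
miR-1-y: tGGAATGTaaagaagtatgtac
miR-1-z: tGGAATGTaaagaagtatgt
miR-206-y: tGGAATGTaaggaagtatgt
miR-133-z: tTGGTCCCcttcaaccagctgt
miR-133-y: tTGGTCCCcttcaaccagctgc
miR-133-x: aGCTGGTTgaacccgggccaaat
With positions counted from 1 at the 5′ end, miR-1-z is the first 20 of the 22 bases of miR-1-y, without any difference. miR-206-y is as long as miR-1-z and differs from it by A11G, outside the seed. miR-133-z and miR-133-y differ by T22C, their last base. miR-133-x has a seed of its own, and a run of 11 of its bases is found in the reverse complement of miR-133-z. No other of the 918 references had any of these 3 seeds. The authors matched tags to known miRNAs with up to 2 mismatches, and how a tag that matches several of these references was counted is not given in the sources used here. The line between miR-1-z, miR-1-y and miR-206-y therefore depends on that step, as does the line between miR-133-z and miR-133-y. The one other reference within 2 mismatches of miR-1-z over its 20 bases, miR-256-y, had 2 counts in all.

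The libraries held 8235539 to 10694742 clean reads, and 3762511 to 6781384 counts per library fell on the miRNA references. The members differed widely in abundance. miR-1-y had 3419852 counts over the 9 libraries and was the third most counted reference, and miR-1-z had 1533633 and ranked 12. miR-133-z had 84544 counts, miR-133-y 14737 and miR-206-y 8013. miR-133-x had 13 counts. Of the 6 members, 5 passed edgeR's filter on low counts and were tested, while miR-133-x was not.

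In CPM, counts scaled to a common library size after edgeR's TMM normalisation, the members followed 3 courses. The longer miR-1 reference, miR-1-y, was called in no comparison of stages. The shorter one, miR-1-z, and miR-206-y rose in CL and had their highest means in PL. miR-133-z and miR-133-y rose in PL. A miRNA was called where the adjusted p was under 0.05 and the fold change over 2, with edgeR's quasi-likelihood test on all 9 libraries and Benjamini-Hochberg adjustment over the 214 references tested.

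**Figure D1:**
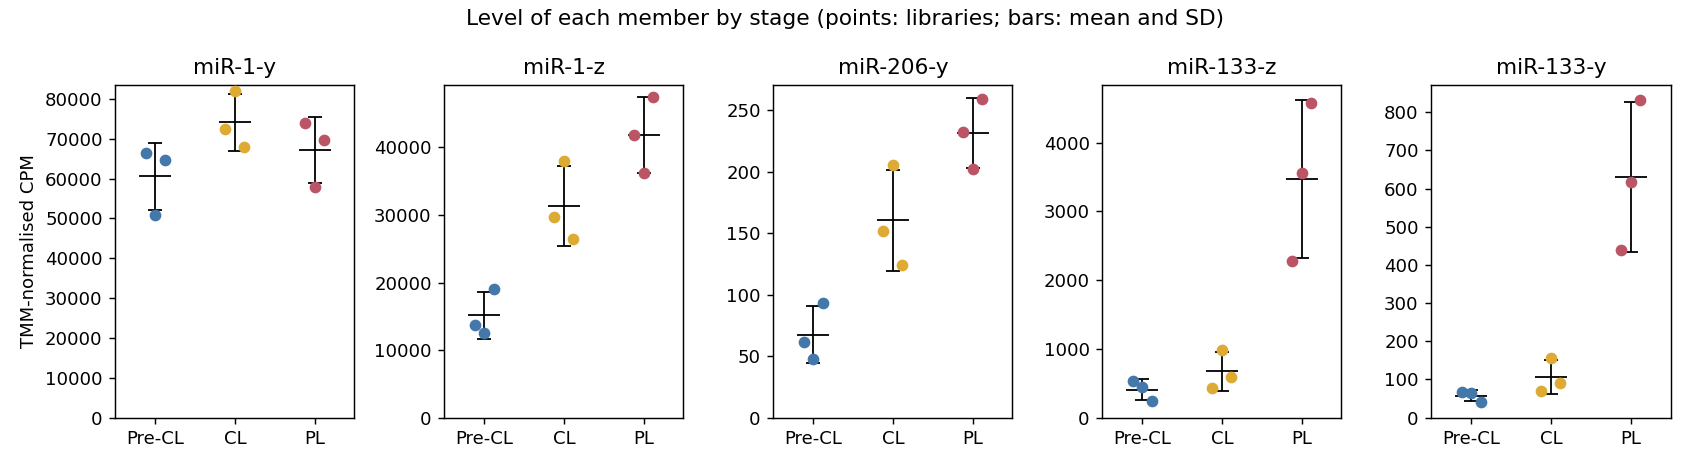
TMM-normalised CPM (linear axes from 0, one scale per panel) of the 5 tested members in the 9 libraries by stage, with points for libraries and bars for the mean and SD. miR-1-z and miR-206-y step up at CL, the miR-133 references at PL, and the PL mean of miR-1-y lies between the means of the other stages.

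The most abundant member was miR-1-y, the 22-base reference. It had 66340, 50885 and 64566 CPM in the 3 Pre-CL libraries, 72588, 81972 and 67838 CPM in the CL libraries, and 73912, 57876 and 69634 CPM in the PL libraries. The CL libraries all lay above the Pre-CL libraries, while the PL libraries overlapped both other stages. Its log2 fold change was 0.29 ± 0.17 (SE) in CL against Pre-CL (adjusted p = 0.28), -0.14 ± 0.17 in PL against CL (adjusted p = 0.52) and 0.15 ± 0.17 in PL against Pre-CL (adjusted p = 0.5). This level depends on the scaling. As a share of all miRNA counts miR-1-y was 5.22% ± 0.54 in Pre-CL, 6.52% ± 0.69 in CL and 8.82% ± 0.92 in PL (SD, n = 3 each). With total miRNA counts as library size its log2 fold change was 0.43 in PL against CL (adjusted p = 0.026) and 0.76 in PL against Pre-CL (adjusted p = 0.0014), both under the 2-fold limit, and the median over all tested references moved to 0.79 and 0.63 in these comparisons, against 0.20 and 0.06 with TMM.

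miR-1-z, the reference that ends 2 bases earlier, had 13746, 12529 and 19093 CPM in the Pre-CL libraries, 29675, 37941 and 26393 CPM in the CL libraries, and 41826, 36243 and 47458 CPM in the PL libraries. Each CL library was above each Pre-CL library, and the CL and PL libraries overlapped. It rose in CL against Pre-CL by a log2 fold change of 1.05 ± 0.22 (SE; adjusted p = 0.01), close to the 2-fold limit. The log2 fold change was 0.96 without CL 2, 0.99 without Pre-CL 1 and 1.0 without Pre-CL 2, and the call was lost each time. Between PL and CL the difference was 0.42 ± 0.22 (adjusted p = 0.15) and not called. This size depends on the scaling. It was 1.0 with total miRNA counts as library size (adjusted p = 0.00061, just under the 2-fold limit), 0.68 with clean reads (adjusted p = 0.01) and 0.11 when only references with a mean over 10 CPM of clean reads were kept (adjusted p = 0.59). As a share of all miRNA counts miR-1-z was 1.29% ± 0.10 in Pre-CL, 2.75% ± 0.40 in CL and 5.47% ± 0.07 in PL (SD, n = 3 each). PL exceeded Pre-CL by 1.47 ± 0.22 (adjusted p = 0.00078), and this call held in all 17 alternatives run.

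miR-206-y, the reference with the miR-1 seed and a G at its eleventh base, was far less abundant. It had 61.5, 48.1 and 93.0 CPM in the Pre-CL libraries, 151.9, 205.2 and 124.5 CPM in the CL libraries, and 232.4, 202.2 and 259.2 CPM in the PL libraries. No CL or PL library reached down to the Pre-CL libraries, while CL 2 lay just above the lowest PL library. It rose in CL against Pre-CL by a log2 fold change of 1.25 ± 0.31 (SE; adjusted p = 0.019). Leaving out Pre-CL 1 (1.19, adjusted p = 0.072) or CL 2 (1.10, adjusted p = 0.086) ended this call. The difference of PL from CL was 0.53 ± 0.31 (adjusted p = 0.2) and not called, and PL exceeded Pre-CL by 1.78 ± 0.32 (adjusted p = 0.0015). With total miRNA counts as library size the difference of PL from CL was also called, at 1.11 (adjusted p = 0.0053).

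The leading miR-133 reference, miR-133-z, had 539.3, 443.3 and 243.3 CPM in the Pre-CL libraries, 436.1, 990.3 and 587.5 CPM in the CL libraries, and 2278, 3564 and 4570 CPM in the PL libraries. Pre-CL and CL overlapped, and the lowest PL library was above the highest CL library. In PL against CL miR-133-z rose by a log2 fold change of 2.37 ± 0.42 (SE; adjusted p = 0.002), which is 5.17-fold. In CL against Pre-CL the value was 0.72 ± 0.41 (adjusted p = 0.25). In PL against Pre-CL it was 3.09 ± 0.44, or 8.49-fold (adjusted p = 0.00054).

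miR-133-y, the reference with the other last base, had 66.8, 65.3 and 40.7 CPM in the Pre-CL libraries, 69.3, 155.7 and 91.6 CPM in the CL libraries, and 440.0, 617.6 and 832.1 CPM in the PL libraries. Within PL the order of the libraries was that of miR-133-z, with PL 1 lowest and PL 3 highest, and within each other stage too the lowest library of miR-133-z was that of miR-133-y. It rose in PL against CL by a log2 fold change of 2.58 ± 0.39 (SE; adjusted p = 0.00097) and in PL against Pre-CL by 3.45 ± 0.41 (adjusted p = 0.00022), 5.97-fold and 10.9-fold. CL against Pre-CL gave 0.87 ± 0.37 (adjusted p = 0.14), although the CL libraries all lay above the Pre-CL libraries. The calls of both miR-133 references in PL held in all 17 alternatives run.

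miR-133-x, the reference with a seed of its own, had 0, 0 and 2 counts in the Pre-CL libraries, 0 in each CL library, and 5, 4 and 2 counts in the PL libraries. Counting error alone would leave room for 3 counts where none was seen, or 0.442 to 0.585 CPM of the miRNA counts in the CL libraries. Its 11 counts in PL stood against 67061 counts of miR-133-z and 12100 of miR-133-y in the same libraries. A fit of edgeR without the filter on low counts called no change of miR-133-x, with adjusted p = 0.62 in CL against Pre-CL, 0.25 in PL against CL and 0.49 in PL against Pre-CL. The PL and CL libraries did not overlap, but no fold change is given at so few counts.

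**Figure D2:**
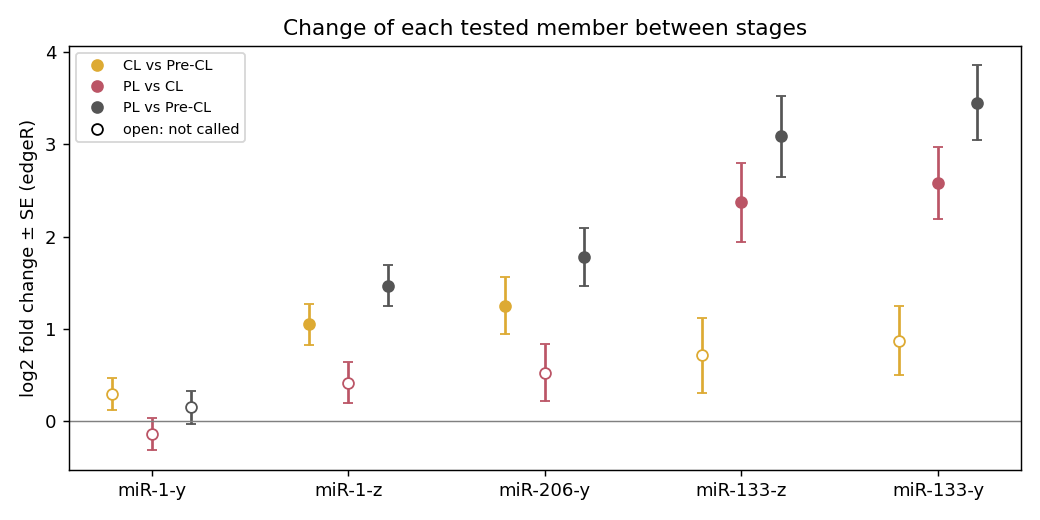
Log2 fold change with its standard error (edgeR, TMM scaling, n = 3 libraries per stage) of the 5 tested members in the 3 comparisons of stages, with filled points for called changes. CL against Pre-CL is called for miR-1-z and miR-206-y, PL against CL for both miR-133 references, and no comparison is called for miR-1-y.

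Counted together, 2 of the 5 tested members were called in CL against Pre-CL, 2 in PL against CL and 4 in PL against Pre-CL, all of them higher in the later stage. Over all tested references 19.6% were called in CL against Pre-CL (10.3% higher and 9.35% lower in CL), 36.9% in PL against CL (22.4% higher and 14.5% lower in PL) and 50.5% in PL against Pre-CL (28.5% higher and 22% lower in PL). The members share seeds and sequence and are not independent of each other. Non-overlap in the upward direction was found for 4 members in CL against Pre-CL, against 19.6% of the tested references, and for both miR-133 references among those tested in PL against CL, against 33.6%. In PL against Pre-CL it was also found for 4 tested members, against 36.9% of the tested references. References of one family were also counted together. The summed miR-1-y, miR-1-z and miR-206-y, which miR-1-y dominates, had log2 fold changes of 0.51, 0.06 and 0.56 in the 3 comparisons with TMM and was not called, although the last had an adjusted p of 0.04, while the summed miR-133-y and miR-133-z were called in PL against CL at 2.43 and in PL against Pre-CL at 3.20. As a share of all miRNA counts, miR-1-y and miR-1-z together were 6.503% ± 0.45 in Pre-CL, 9.27% ± 1.04 in CL and 14.3% ± 0.99 in PL (SD, n = 3 each), without overlap between stages, so the change of the miR-1 sum too depends on the scaling.

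The ratio of miR-1-z to miR-1-y compares counts on the 20-base and the 22-base reference inside one library, so it does not depend on the scaling between libraries. The lengths of the counted tags themselves were not measured here. miR-1-z amounted to 20.7%, 24.6% and 29.6% of miR-1-y in the Pre-CL libraries, to 40.9%, 46.3% and 38.9% in the CL libraries, and to 56.6%, 62.6% and 68.2% in the PL libraries. No stage overlapped another. The mean ratio was 0.250 ± 0.044 in Pre-CL, 0.420 ± 0.038 in CL and 0.625 ± 0.058 in PL (SD, n = 3 each). The smallest of these counts was 73482, and the exact 95% interval of counting error was 0.206 to 0.209 for the lowest ratio and 0.678 to 0.685 for the highest. On the log2 scale the ratio differed by 0.76 ± 0.17 (SE) in CL against Pre-CL, by 0.57 ± 0.11 in PL against CL and by 1.33 ± 0.17 in PL against Pre-CL. Each of these reached p = 0.1 in a two-sided exact permutation test, the smallest p that 3 libraries against 3 can give, or 0.136 adjusted over the 15 tests of ratios. An exact permutation test of the spread between the 3 stages over all 1680 regroupings of the 9 libraries, added after the values were seen, gave p = 0.0036, the smallest it can give, and 0.018 adjusted over 5 ratios.

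Read length and tag assignment moved with stage in part. Inserts under 18 nt made up 4.29%, 4.30% and 14.5% of high-quality reads in the Pre-CL libraries, 5.46%, 5.94% and 6.26% in the CL libraries, and 19.0%, 11.5% and 9.0% in the PL libraries. The library with the most short inserts in its stage had the highest ratio of miR-1-z to miR-1-y in Pre-CL, and the lowest in CL and in PL. The counts on references summed to 1.02 times the tags annotated as miRNA in each Pre-CL library at most and to 0.992 times at least in PL. The part of either in the ratio was not tested. In 6 other pairs of references with at least 10 counts in every library the shorter is likewise the start of the longer. The ratio of shorter to longer was higher in PL than in Pre-CL in 3 of these pairs and lower in the other 3, with log2 differences from -1.50 for miR-99-x to miR-100-x to 1.05 for miR-216-x to miR-283-x, against 1.33 for miR-1.

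**Figure D3:**
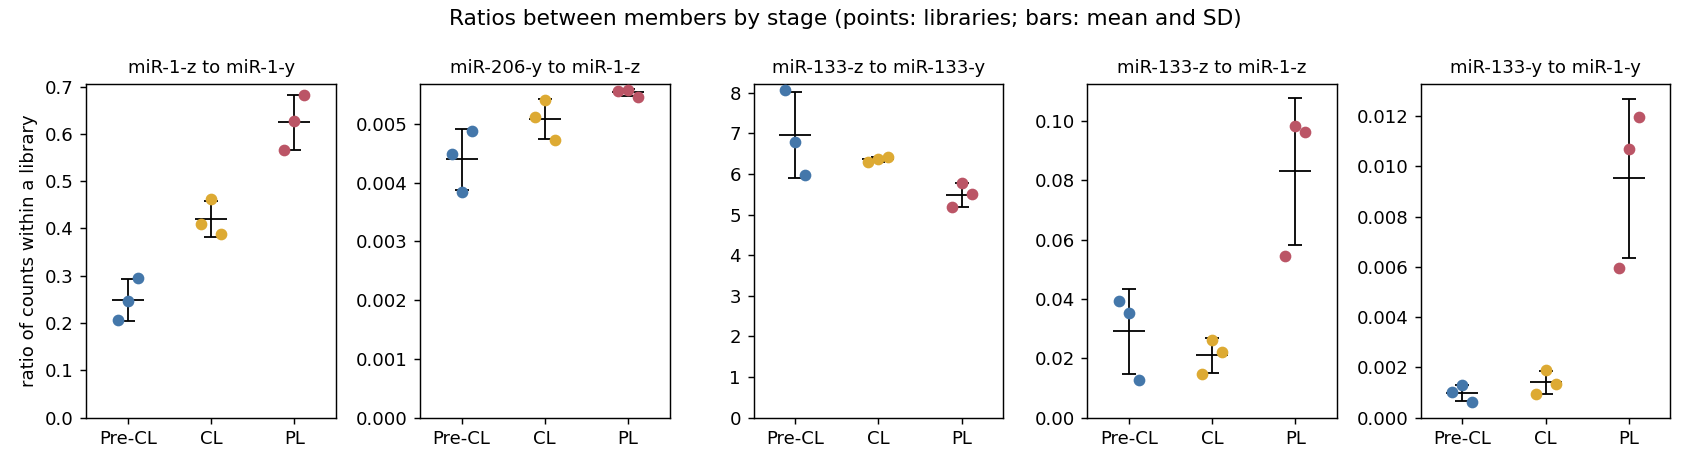
Ratio of counts between members within each library (linear axes from 0, one scale per panel), by stage, with points for libraries and bars for the mean and SD. The ratio of miR-1-z to miR-1-y has no overlap between stages, and the 2 ratios of miR-133 to miR-1 stand apart in PL.

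Counts on miR-206-y followed those on miR-1-z closely. The references differ only by A11G, and tags were matched with up to 2 mismatches. Whether tags of miR-1-z were counted on miR-206-y was not tested. It amounted to 0.448%, 0.384% and 0.487% of miR-1-z in the Pre-CL libraries, to 0.512%, 0.541% and 0.472% in the CL libraries, and to 0.556%, 0.558% and 0.546% in the PL libraries. The PL libraries lay above all others by a small margin, within counting error. As a ratio, the exact 95% interval of counting error was 0.00520 to 0.00573 in PL 3, the lowest of PL. In CL 2, the highest of the other stages, it was 0.00509 to 0.00574. The log2 difference was 0.34 ± 0.10 (SE) in PL against Pre-CL (exact permutation p = 0.1, adjusted p = 0.136). Over the 3 stages the exact permutation test gave p = 0.039 (adjusted p = 0.039), and 0.0536 to 0.0857 without any one of Pre-CL 1, Pre-CL 2, CL 1 or a PL library.

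miR-133-z to miR-133-y, the ratio of the 2 references that differ in their last base, was 8.08, 6.79 and 5.98 in the Pre-CL libraries, 6.29, 6.36 and 6.42 in the CL libraries, and 5.18, 5.77 and 5.49 in the PL libraries. The miR-133-z reference was the more counted one in every library, and its lead was smaller in PL than in any other library. PL differed from CL by -0.22 ± 0.05 (SE) and from Pre-CL by -0.33 ± 0.13 on the log2 scale (exact permutation p = 0.1 and adjusted p = 0.136 each). The counting interval in Pre-CL 3, with 176 counts of miR-133-y, ran from 5.09 to 7.05. The test over 3 stages gave an exact p = 0.029 (adjusted p = 0.036), and 0.0536 to 0.161 without any one of Pre-CL 2, the CL libraries or the PL libraries.

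The ratio of miR-133-z to miR-1-z sets the 2 seeds against each other. It was 3.92%, 3.54% and 1.27% in the Pre-CL libraries, 1.47%, 2.61% and 2.23% in the CL libraries, and 5.45%, 9.83% and 9.63% in the PL libraries. Pre-CL and CL overlapped and PL stood above both. The log2 difference was 1.97 ± 0.37 (SE) in PL against CL and 1.62 ± 0.59 in PL against Pre-CL (exact permutation p = 0.1 and adjusted p = 0.136 each). In CL against Pre-CL it was -0.35 ± 0.57 (exact permutation p = 0.6, adjusted p = 0.6). The test over 3 stages gave an exact p = 0.029 (adjusted p = 0.036), and 0.05 to 0.0929 without Pre-CL 2, CL 1, CL 3, PL 2 or PL 3.

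For miR-133-y to miR-1-y the ratio was 0.101%, 0.128% and 0.0631% in the Pre-CL libraries, 0.0955%, 0.190% and 0.135% in the CL libraries, and 0.595%, 1.07% and 1.20% in the PL libraries. PL lay above both larval stages, which overlapped. The log2 difference was 2.76 ± 0.42 (SE) in PL against CL and 3.29 ± 0.43 in PL against Pre-CL (exact permutation p = 0.1 and adjusted p = 0.136 each), and the test over 3 stages gave an exact p = 0.014 (adjusted p = 0.036).

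The patterns over the 9 libraries were compared by Pearson's r of log2(CPM + 1), as a description. The libraries of one stage share that stage, so the 9 points are not independent. miR-206-y had r = 0.997 and miR-1-y r = 0.60 with miR-1-z, and miR-133-y had r = 0.996 and miR-1-z r = 0.76 with miR-133-z. Outside the members, the 3 tested references nearest to miR-1-z were miR-278-x (r = 0.97), miR-278-z (r = 0.97) and miR-124-y (r = 0.97). miR-124, a miRNA of neurons in many animals, averaged 46.1 ± 2.2 CPM in Pre-CL, 194.3 ± 48.4 CPM in CL and 297.2 ± 26.3 CPM in PL (SD, n = 3 each). The 3 nearest to miR-133-z were miR-1175-y (r = 0.97), miR-277-y (r = 0.97) and miR-190-x (r = 0.97). miR-1175-y averaged 503.1 ± 241.7 CPM in Pre-CL, 497.9 ± 152.2 CPM in CL and 8913 ± 2435 CPM in PL (SD, n = 3 each), a step at PL as in miR-133-z.

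The miRNAs of other cell types were read from lists of names known mostly from vertebrates and insects. The other muscle miRNAs of vertebrates, miR-208, miR-499 and miR-486, had 3 references with 25 counts in all and none was tested. Of 8 tested references on the neural list, 1 was higher in CL than Pre-CL, 2 were higher in PL than CL and 2 higher in PL than Pre-CL, and none was lower. Over all tested references 10.3%, 22.4% and 28.5% were higher and 9.35%, 14.5% and 22% lower in these 3 comparisons. The summed share of the neural list was 3.88% to 4.75% of miRNA counts in PL, 1.37% to 2.17% in CL and 1.48% to 2.72% in Pre-CL. Such shares depend on the scaling. With total miRNA counts as library size the median log2 fold change of all tested references was 0.63 in PL against Pre-CL. On the list for ciliated and sensory organs, 4 of 5 tested references were lower and none higher in PL than Pre-CL. In PL against CL 4 were lower and miR-182-x was higher (log2 fold change 2.44, adjusted p = 0.026), and none was called in CL against Pre-CL. The summed share was 1.51% to 1.73% in PL, against 12.6% to 13.3% in Pre-CL. On the epithelial and gut list, 2 of 10 tested references were higher and 2 lower in PL than Pre-CL, and the summed share was 2.94% to 3.19% in PL, against 2.32% to 3.12% in Pre-CL. The blood cell list had 6 counts in all. These lists moved over the same stages as the members, and their part in the members' changes was not tested.

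The deposited association table pairs 195 miRNAs with predicted target genes of the whelk transcriptome and gives the authors' mean FPKM of each target per stage, without replicates, so no test was made on it. Per the paper, the mRNA levels come from an earlier transcriptome study of the same stages. Targets and miRNAs were therefore not measured in the same libraries. The authors' prediction required full pairing at bases 2 to 8, and the pairs kept are those whose levels run opposite to the miRNA. A target that falls while its miRNA rises is therefore how the pairs were chosen and not a result. miR-1-z had 227 targets, miR-206-y 200, miR-133-x 72, miR-133-z 65 and miR-133-y 61, together 371 genes. miR-1-y was not among the 195 miRNAs of the table. The paper selected pairs with the miRNAs it called differentially expressed, which it also counts as 195. The absence of miR-1-y therefore does not mean that it has no predicted targets.

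References with the same seed shared most of their targets. The prediction required pairing at the seed and these references rose together, so this sharing follows from how the pairs were made. miR-1-z and miR-206-y shared 187 targets, 82.4% of those of miR-1-z and 93.5% of those of miR-206-y. miR-133-z and miR-133-y shared 60, which is 92.3% of the targets of miR-133-z and 98.4% of those of miR-133-y. miR-133-x shared none with any other member, but the choice of pairs left no room for sharing. All of its targets were higher in CL than in Pre-CL, and all targets of the other members were lower. Nothing about seeds is read from that lack of sharing. The 7 genes in common between the seeds were paired with all of miR-1-z, miR-206-y, miR-133-y and miR-133-z. Among these were integrin alpha-7 (c155256_g1), a receptor that ties muscle cells to the matrix around them in vertebrates, with 11.5, 4.24 and 3.52 FPKM in Pre-CL, CL and PL, and the kinase MST4 (c128456_g1) with 17.2, 16.7 and 15.8 FPKM. The highest of the 7 in Pre-CL, c155710_g1, had 33.1, 7.01 and 0.237 FPKM and no description.

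All 625 pairs of the members had a lower mean FPKM in PL than in Pre-CL, against 71.3% of all 30524 pairs in the table. The direction of these pairs and of the medians below follows from how the pairs were chosen. A gene paired with several members counts once for each. The median log2((PL + 1)/(Pre-CL + 1)) was -1.20 for miR-1-z, -1.21 for miR-206-y, -1.34 for miR-133-z, -1.18 for miR-133-y and -0.39 for miR-133-x, against -0.42 over all pairs. For miR-133-x all 72 targets were highest in CL, the stage in which this reference had no count, so these pairs rest on 13 counts.

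Among targets of miR-1-z and miR-206-y with a Swiss-Prot description and at least 10 FPKM, the 5 with the largest differences were the same genes for both. A target without such a description could differ more, as did c153623_g1, given with the list of known targets. Complement C1q-like protein 2 (c128323_g1) had 110.3, 13.4 and 0.273 FPKM in Pre-CL, CL and PL. A cornifelin homolog (c150633_g2) had 83.5, 27.5 and 0.0267 FPKM. Tektin-3 (c150230_g3), a filament protein of the microtubules in cilia and flagella, had 581.3, 94.4 and 19.4 FPKM and was the most abundant of the 5. IQ and AAA domain-containing protein 1-like (c152334_g1) had 69.1, 10.2 and 3.46 FPKM, and the sodium- and chloride-dependent glycine transporter 2 (c143290_g2), which takes up glycine at synapses in vertebrates, had 35.7, 7.21 and 2.15 FPKM.

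For miR-133-z the leading gene was a putative tyrosinase-like protein, tyr-3 (c152454_g1), with 180.0, 35.6 and 7.67 FPKM in Pre-CL, CL and PL, which was not paired with miR-133-y. Mammalian ependymin-related protein 1 (c130327_g1) had 12.98 and 0.233 FPKM in Pre-CL and CL and was listed at 0 in PL. Tctex1 domain-containing protein 1-B (c135926_g1), of a family of dynein light chains, had 29.8, 4.65 and 1.99 FPKM. Prolyl-tRNA synthetase associated domain-containing protein 1 (c135745_g1) had 24.8, 5.98 and 1.76 FPKM, and UPF0722 protein (c150566_g1) had 44.1, 10.7 and 5.45 FPKM. A fatty acid-binding protein (c143063_g1), a carrier of lipids within the cell, stood among the 5 of miR-133-y in place of tyr-3, with 14.1, 4.32 and 1.76 FPKM.

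The corresponding targets of miR-133-x had another course, with their highest value in CL. The foldase FKBP14 (c157110_g2) had 8.38, 10.9 and 1.79 FPKM in Pre-CL, CL and PL. Mitochondrial dUTPase (c141793_g1), which keeps uracil out of DNA, had 30.0, 42.0 and 16.6 FPKM, and the chaperonin subunit T-complex protein 1 subunit beta (c152419_g1) had 55.9, 58.2 and 31.9 FPKM. The succinyltransferase of the 2-oxoglutarate dehydrogenase complex (c148222_g1) had 30.9, 41.9 and 19.5 FPKM, and gigasin-6 (c98089_g1) had 11.4, 16.3 and 7.91 FPKM.

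**Figure D4:**
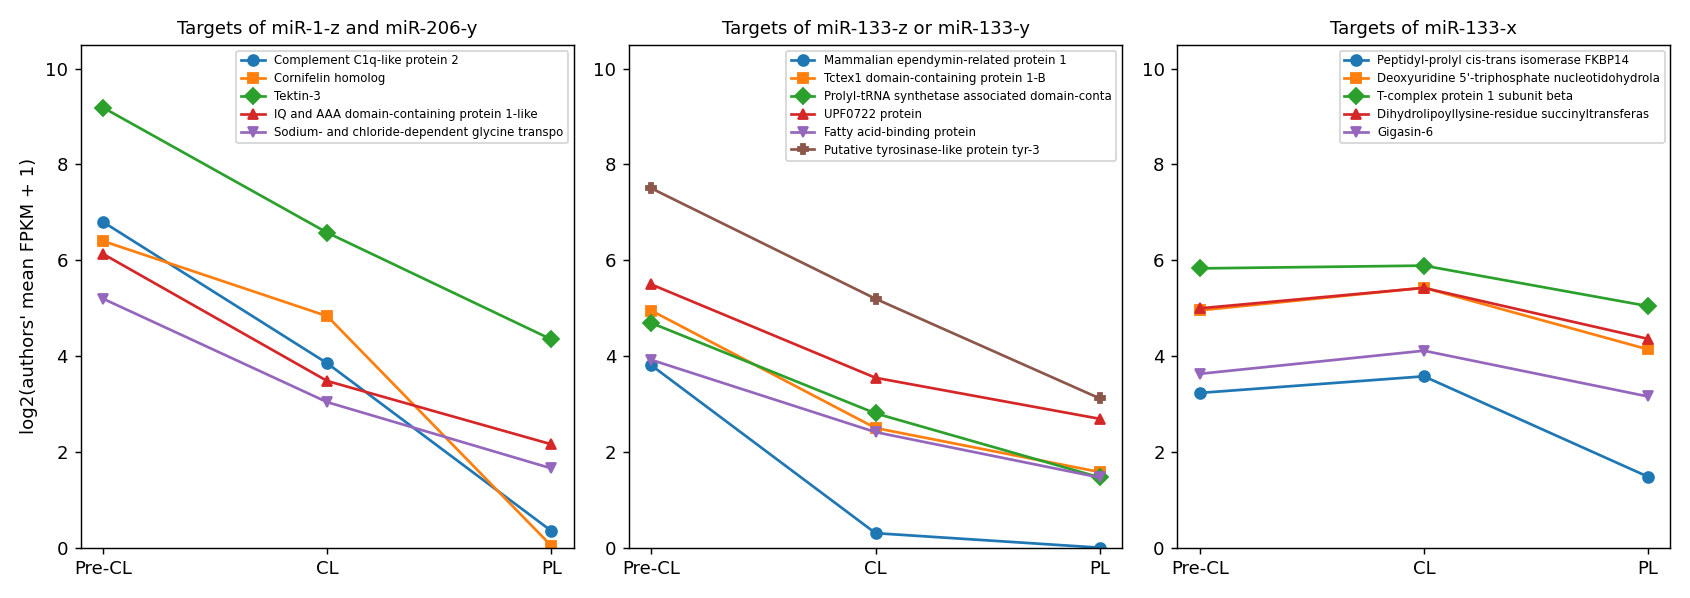
The authors' mean FPKM per stage, as log2(FPKM + 1), of the targets with a Swiss-Prot description and the largest differences for miR-1-z and miR-206-y, for miR-133-z or miR-133-y, and for miR-133-x, with one line per gene and no replicate spread. The first 2 panels fall over the stages and the third has its highest value in CL, which follows from how pairs were chosen.

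A list of muscle protein names matched 3 of the 371 target genes, 0.809%, beside 83 of the 11401 genes in the whole table, 0.728%. They were integrin alpha-7, a myosin essential light chain (c145440_g2), which had 7.84 and 1.25 FPKM in Pre-CL and CL and was listed at 0 in PL, and a myosin-11-like gene (c112641_g2) with 5.38, 0.777 and 0.0867 FPKM. Both myosin genes were paired with miR-1-z and miR-206-y. Of the 83 genes in the table, 63 had a higher and 20 a lower mean in CL than in Pre-CL, and 41 had a higher and 36 a lower mean in PL than in Pre-CL. Of all 30524 pairs, where a gene can stand more than once, 17615 were higher and 12899 lower in CL than in Pre-CL. In PL against Pre-CL 8478 pairs were higher and 21749 lower. The list matches words and took in a myosin heavy chain described as non-muscle (c152004_g1). The 3 named next are abundant examples and not targets of the members. Paramyosin (c119060_g1), the core protein of thick filaments in molluscan muscle, had 92.8, 1049 and 919.2 FPKM in Pre-CL, CL and PL, and actin of adductor muscle type (c145993_g1) had 3565, 5927 and 6098 FPKM. A second muscle actin (c71770_g1) had 203.9, 265.1 and 171.6 FPKM, lower in PL than in Pre-CL.

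A second list held genes known as targets of miR-1, miR-206 or miR-133 in other animals, and 4 of the 371 genes matched by a word of their name, 1.08%, beside 107 of 11401 in the table, 0.939%. Innexin unc-7 (c117958_g3), a gap junction protein of invertebrates, was paired with miR-1-z and had 22.0, 19.4 and 14.0 FPKM in Pre-CL, CL and PL. The other 3 matched only by a shared word: EF-hand domain-containing protein D1 (c153623_g1) with 53.5, 6.67 and 0.133 FPKM, EF-hand calcium-binding domain-containing protein 7 (c154708_g1) with 11.7, 6.27 and 4.41 FPKM, and casein kinase I isoform delta-B (c147096_g1) with 15.5, 11.6 and 7.72 FPKM, which are not the transcription factor Hand or the Notch ligand Delta.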

How the data were processed

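Small RNAs of 18 to 30 nt were sequenced in 9 libraries, 3 per stage. Per the study's methods, adapter and low-quality reads were removed, tags of other RNA classes were discarded, and the rest was aligned to miRBase with up to 2 mismatches. The authors deposited raw counts of tags per reference, which were tested here. The deposited TPM, treated as a score because they are scaled to miRNA tags with 0 written as 0.01, were not used for tests. The deposited read and tag summaries gave library sizes. The authors' mean FPKM per stage came with the target pairs and stem from their earlier transcriptome study. Their columns were set to stages by the letters the labels give the samples. The authors' own columns of log2 ratios, p-values and correlations in that table were not used.

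Counts were fitted with edgeR 4.0.16 (R 4.3.3): TMM, filterByExpr, and the quasi-likelihood test on all 9 libraries without covariates. Standard errors came from the F statistic. The common biological coefficient of variation was 0.456. Ratios were tested in scipy 1.17.1 by two-sided exact permutation, under Python 3.11.15, pandas 2.3.3 and numpy 2.4.6. Libraries are labelled biological replicates, and p-values measure the spread between these libraries. On simulated data of 918 references with 200 changed 4-fold between PL and Pre-CL, edgeR called 27 of the 42 changed references tested and made 0 false calls. The simulation gave all references the same dispersion and had as many rises as falls. It therefore did not test the dependence on scaling seen in the real data. Depth limits miR-133-x, and intervals cover counting error only.

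The members and gene lists were chosen with earlier results of these data known. Named beside the members were the 3 references most like miR-1-z and miR-133-z, the 5 targets with a Swiss-Prot description and at least 10 FPKM with the largest difference for each member, and all targets on the muscle and known-target lists, while c155710_g1, MST4, paramyosin and the actins were named after their values were seen. Alternatives were total miRNA counts or clean reads as library size, limma 3.58.1 on log2(CPM of clean reads + 1), DESeq2 1.42.0, no filter, a mean over 10 CPM of clean reads, only the 6 libraries compared, a replicate block, summed references, and each library left out.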

Additional observations from a re-analysis of the deposited data

How the results depend on the processing

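The number of members called was 2 in CL against Pre-CL, and fell to 1 with limma, to 1 with the replicate block and to 0 with related references summed, where 2 sums stand in place of the 5 tested members. It was 1 in PL against CL and 1 in PL against Pre-CL with the summed references, beside 2 and 4 members. Leaving out one library at a time gave 0 to 2 members called in CL against Pre-CL, with 0 without Pre-CL 1 or CL 2 and 1 without Pre-CL 2, and left the counts at 2 in PL against CL and 4 in PL against Pre-CL. miR-1-y changed sign in PL against CL at 0.43 with total miRNA counts, 0.12 with clean reads and 0.13 with limma, and in PL against Pre-CL at -0.12 with the limit of a mean over 10 CPM of clean reads. The p of the test over 3 stages, leaving out one library at a time, was 0.00357 to 0.0857 for miR-206-y to miR-1-z, 0.00357 to 0.161 for miR-133-z to miR-133-y and 0.0107 to 0.0929 for miR-133-z to miR-1-z. For miR-1-z to miR-1-y it was 0.00357 each time, the smallest p this test can give with a library left out. All differences of ratios kept their sign in the alternatives run. The share of the members' target pairs lower in PL than in Pre-CL was 100% at 1 FPKM or more. In PL against CL it was 99.7%, against 79.9% of all pairs in the table. Both shares follow from how the pairs were chosen, so their stability is not a result. The low count of miR-133-x, 13 in all, limits what depth can show for it. Without TMM, using total miRNA counts, the calls over all references in PL against CL were 76 higher and 17 lower, and with TMM 48 higher and 31 lower.

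The replicate numbers of the stages were not shown to pair the libraries, since deviations of same-numbered libraries correlated at -0.35 to 0.29 and not every library correlated best with its own number. With the replicate block miR-206-y in CL against Pre-CL had a log2 fold change of 1.29 (adjusted p = 0.05, just above the threshold), and miR-1-z kept its call at 1.07 (adjusted p = 0.034). The block gave 36, 68 and 105 calls over all references in CL against Pre-CL, PL against CL and PL against Pre-CL, where the fit without it gave 42, 79 and 108. Paired differences of the log2 ratio of miR-1-z to miR-1-y were 0.76, 0.57 and 1.33 in the 3 comparisons, with an exact p = 0.25 each, the smallest that 3 pairs can give.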

Other observations

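Among the targets 6 genes, all paired with both miR-1-z and miR-206-y, carry words of the cilium in their description, by a word list chosen after the targets were seen. Beside tektin-3 these were dynein heavy chain 2, axonemal (c157144_g1), a motor of the ciliary beat, with 24.9, 8.45 and 4.23 FPKM in Pre-CL, CL and PL, and the intraflagellar transport proteins 81, 43, 27 and 20, which carry cargo along cilia. The transport protein 81 (c153076_g2) had 25.5, 9.40 and 8.74 FPKM and the transport protein 20 (c120988_g1) 11.3, 8.10 and 7.20 FPKM. They are 1.62% of the members' 371 targets, beside 63 genes or 0.553% of the 11401 genes of the table. Of these 63 genes, 62 had a lower mean in PL than in Pre-CL, and the pairs were chosen for running opposite to their miRNA, so nothing is read from this count.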
